A study of Rattus norvegicus with 16 samples.

Results

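Integrins are receptors made of an alpha and a beta chain that bind matrix or other cells, and focal adhesion proteins join their tails to actin and to kinases. The 43 genes proposed by name as integrin subunits and focal adhesion adaptors were looked up in the array annotation, and 41 of them, of 17245 genes tested, had a row naming that gene alone. These were 15 alpha chains, 7 beta chains and 19 adaptors. Itga9 (only on a row shared with other genes) and Itgb3 (no row found under that name) were not analysed here.

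Expression had been measured on Affymetrix Rat Gene 1.1 ST arrays in the cells that stayed on commercially pure titanium implants after retrieval from the tibiae of male Sprague Dawley rats. AT-I implants bore nanoscale features, which the microrough AT-II implants lacked. Each of 8 rats received the 2 surfaces in opposite tibiae, 4 rats were used per day, and the implants of a tibia were pooled for a sample. The 4 groups were AT-I day 4, AT-I day 2, AT-II day 4 and AT-II day 2, with 4 arrays each. No untreated bone or implant-free group is among the samples. The labels call the cell type tibial, name no gate or sort, give no age, and do not tie arrays to rats, so p-values measure the spread between these samples.

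Integrins that bind collagen or fibronectin pair mostly with the common chain beta 1, encoded by Itgb1. Leukocytes use the beta 2 and beta 7 families, and platelets use alpha IIb. Talins and kindlins bind the beta tails, the kinase-like protein ILK with PINCH and parvin forms a link to actin, and focal adhesion kinase (Ptk2) with paxillin, Cas and Src passes the signal on. Cells of bone and connective tissue meet a titanium surface through such adhesions, formed on the protein film that coats it.

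Arrays AT-II day 2 replicates 2 and 3 differed less than any other of the 120 pairs: the SD of their difference was 0.109 on the log2 scale over the 10% most variable of 4036 bright rows, against 0.294 in the next pair. They were averaged and counted as 1 sample, leaving 15 samples and n = 3 for AT-II day 2. The interquartile range of the log2 values over genes averaged 3.04 ± 0.35 (SD, n = 4) in AT-I day 4, 2.67 ± 0.22 (n = 4) in AT-I day 2, 3.26 ± 0.16 (n = 4) in AT-II day 4 and 3.22 ± 0.18 (n = 3) in AT-II day 2. Every level below is a log2 expression value, every change is a difference of group means with its standard error, and a call is a Benjamini-Hochberg adjusted p under 0.05 over all genes (limma). Precision is limited by the number of arrays.

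The 250 bases before the start that the promoter table uses are shown for Itga10 and Itga11, which had the largest rises among the members, and for Parvg, the member that fell. They come from RefSeq for the GRCr8 build, which lists a promoter for 31 of the 41 measured members. Capitals mark 6-letter matches to a searched motif, on either strand.
Itga10: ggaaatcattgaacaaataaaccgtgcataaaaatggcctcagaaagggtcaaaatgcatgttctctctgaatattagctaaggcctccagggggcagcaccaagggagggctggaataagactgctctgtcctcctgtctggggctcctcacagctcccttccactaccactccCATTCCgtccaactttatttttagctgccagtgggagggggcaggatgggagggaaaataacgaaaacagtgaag
Itga11: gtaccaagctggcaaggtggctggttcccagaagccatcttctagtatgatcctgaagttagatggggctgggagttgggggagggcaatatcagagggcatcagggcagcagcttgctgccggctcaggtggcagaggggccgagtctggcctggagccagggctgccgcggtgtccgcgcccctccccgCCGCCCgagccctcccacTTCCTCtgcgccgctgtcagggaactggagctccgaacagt
Parvg: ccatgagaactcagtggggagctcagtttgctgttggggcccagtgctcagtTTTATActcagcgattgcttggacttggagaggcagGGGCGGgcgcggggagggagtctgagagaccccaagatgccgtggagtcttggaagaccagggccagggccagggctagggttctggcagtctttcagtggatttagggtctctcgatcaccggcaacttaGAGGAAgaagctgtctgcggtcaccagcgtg
The windows are chr2:186871461-186871710, chr8:72041182-72041431 and chr7:117335937-117336186, all on the plus strand. The Itga10 and Itga11 windows end just before the gene's annotated first base, while that of Parvg has its last 27 bases inside the gene, annotated from 117336160. Motifs searched on both strands were TGTGGT (the core of RUNX sites), GAGGAA (known from ETS factors such as PU.1), GGGCGG (the box bound by SP1), GGAATG (known from TEAD factors), TGANTCA (known from AP-1) and TATAAA (the TATA box). In Itga10 the capitals are a GGAATG match on the minus strand, 75 to 70 bases before the start. In Itga11 they are GGGCGG, 59 to 54 bases before, and GAGGAA, 41 to 36 bases before, both on the minus strand. Parvg held TATAAA on the minus strand (198 to 193 bases before), GGGCGG (162 to 157) and GAGGAA (31 to 26) on the plus strand, and this last match lies across the gene's annotated first base. Among 33469 rat promoters of that length, GAGGAA was found in 23.3%, GGGCGG in 30.5%, GGAATG in 12.1%, TATAAA in 12.9%, TGTGGT in 14.5% and TGANTCA in 6.34%. Of the 31 member promoters, 8, 18, 6, 3, 9 and 1 held these motifs in the same order. The RUNX core was found in none of the 3 windows shown, and its 9 holders were Fermt1, Fermt3, Ilk, Itga2b, Itga4, Itgam, Itgb7, Tln2 and Zyx.

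The comparison of day 4 with day 2 asks how the adhesion genes of the adherent cells changed as healing went on. On AT-I, 8 of the 41 members rose and 1 fell, where 8.84% of all genes rose and 2.66% fell. Those that rose were 3 collagen-binding alpha chains (Itga1, Itga10 and Itga11), their partner Itgb1 and the adaptors Fermt2, Parva, Bcar1 and Ptk2. Parvg fell. On AT-II, 4 members rose (Itga10, Itga11, Bcar1 and Ptk2) against 3.13% of all genes, and 1 fell (Parvg) against 0.203%. The 5 members called on AT-II were all among the 9 called on AT-I. The median change of the members was -0.03 on AT-I and -0.05 on AT-II, beside -0.05 and -0.05 for all genes. Without overlap between the days, 7 members were higher and 1 lower on AT-I, where 11.3% and 4.01% of all genes were, and 6 were higher and 4 lower on AT-II, where 8.74% and 7.63% were.

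**Figure D1:**
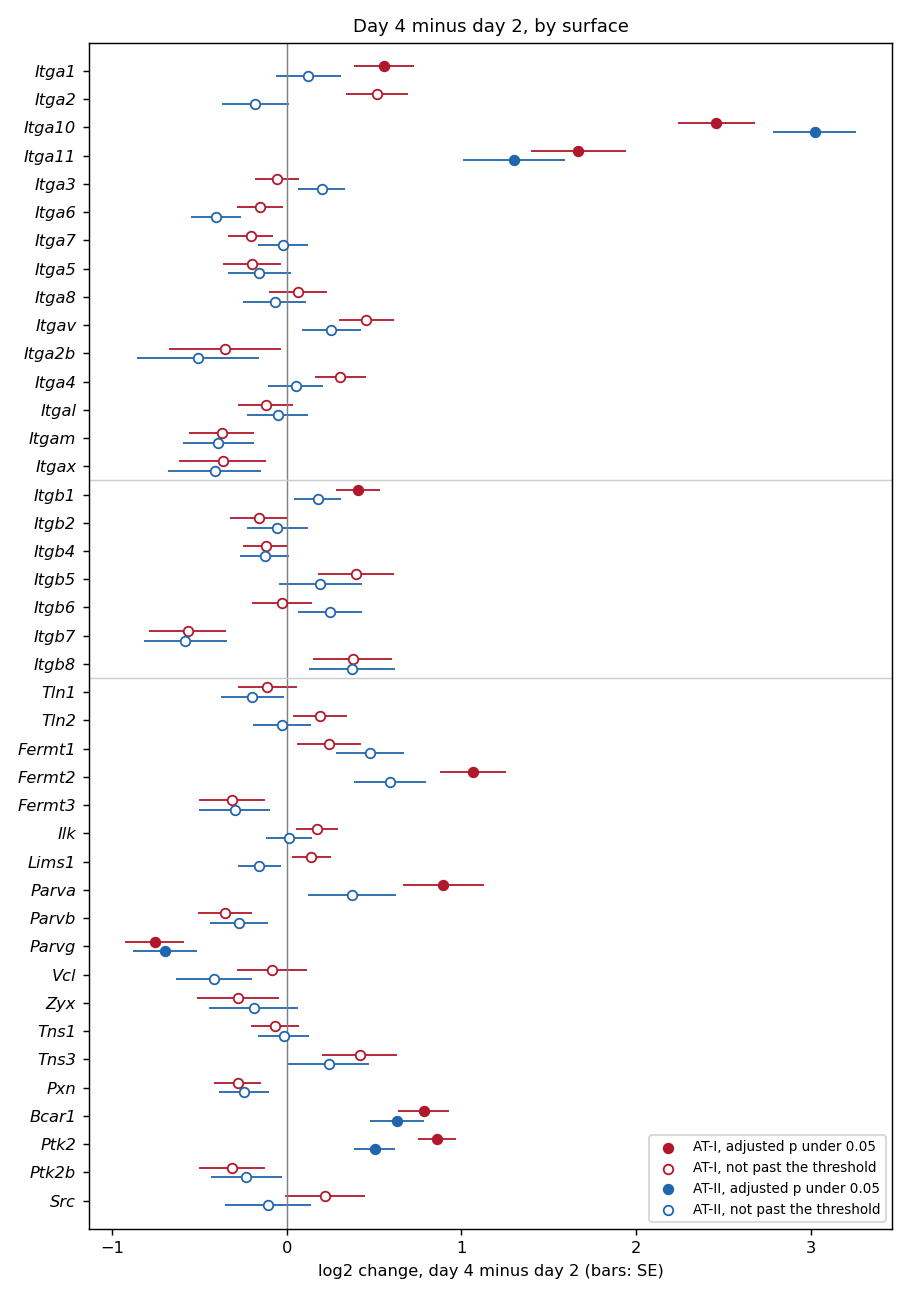
Log2 change from day 2 to day 4 (horizontal axis, day 4 minus day 2, bars SE) for the 41 measured members, in the order alpha chains, beta chains and adaptors, with AT-I in red above AT-II in blue and filled points for calls. Itga10 and Itga11 lie farthest to the right on both surfaces, Parvg lies farthest to the left on both, and most points are open and near 0.

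Itga10, the alpha chain of a beta 1 receptor for collagen known from cartilage, had the largest change of any member. Its levels were 7.82, 7.74, 7.40 and 7.68 in AT-I day 4, against 5.16, 5.13, 4.81 and 5.70 in AT-I day 2. They were 8.52, 7.75, 8.04 and 7.55 in AT-II day 4, against 4.55, 5.06 and 5.21 in AT-II day 2. Every day 4 sample was above every day 2 sample on both surfaces. The change was 2.46 ± 0.22 on AT-I (5.5-fold, adjusted p = 1.73e-05) and 3.02 ± 0.24 on AT-II (8.13-fold, adjusted p = 1.11e-05). Itga10 was past the threshold in all 26 other settings in which it was tested, and its level over all samples, 6.54, was below that of the median gene.

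Itga11, the alpha chain of a collagen receptor of fibroblasts and mesenchymal cells, was at 8.86, 8.74, 8.82 and 8.78 in AT-I day 4, against 6.13, 7.27, 7.76 and 7.36 in AT-I day 2. In AT-II day 4 it was at 9.09, 9.06, 9.03 and 8.40, against 7.27, 7.53 and 7.97 in AT-II day 2. The AT-I day 4 samples spread over 0.13 while the AT-I day 2 samples spread over 1.63, and the days did not overlap on either surface. Itga11 rose by 1.67 ± 0.27 on AT-I (3.18-fold, adjusted p = 0.000876) and by 1.30 ± 0.29 on AT-II (2.47-fold, adjusted p = 0.0203). The AT-II call ended in 5 of the 15 fits that each left out 1 sample, with AT-II day 2 replicate 1 giving 1.14 (adjusted p = 0.145), while the AT-I call held in all 15.

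Itga1, the alpha chain of another collagen receptor, which also binds laminin, was at 8.43, 8.42, 8.00 and 8.62 in AT-I day 4, against 7.45, 8.18, 7.94 and 7.68 in AT-I day 2. It was at 8.59, 8.77, 8.25 and 8.45 in AT-II day 4, against 8.56, 8.25 and 8.36 in AT-II day 2. AT-I day 2 held the 3 lowest samples of the 15. The change was 0.56 ± 0.17 on AT-I (adjusted p = 0.0486) and 0.12 ± 0.19 on AT-II (adjusted p = 0.866). The AT-I call ended in 12 of the 15 fits that left out a sample, and it held without AT-I day 2 replicate 2, AT-I day 4 replicate 3 or AT-II day 4 replicate 2. Of those 12 fits, 6 left out an AT-I sample. The others left out an AT-II sample, with the AT-I change still at 0.56 and adjusted p of 0.0506 to 0.0625. Itga2, the fourth collagen-binding chain, found on platelets and epithelia, was at 7.45, 7.13, 7.29 and 7.67 in AT-I day 4, against 6.52, 7.28, 6.54 and 7.14 in AT-I day 2, and at 7.33, 7.24, 7.09 and 7.22 in AT-II day 4, against 7.51, 7.55 and 7.14 in AT-II day 2. The days overlapped on both surfaces, and Itga2 did not pass: 0.52 ± 0.18 on AT-I (adjusted p = 0.0725) and -0.18 ± 0.19 on AT-II (adjusted p = 0.781).

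Itgb1, the beta chain that the collagen-binding alpha chains need, was at 10.96, 10.97, 10.98 and 11.01 in AT-I day 4, against 10.29, 10.55, 10.85 and 10.60 in AT-I day 2. The AT-II values were 10.997, 11.18, 11.14 and 10.91 on day 4, against 10.66, 10.94 and 11.04 on day 2. The AT-I days did not overlap, while the AT-II days did. Itgb1 rose by 0.41 ± 0.13 on AT-I (1.33-fold, adjusted p = 0.0476), and its AT-II change of 0.18 ± 0.14 did not pass (adjusted p = 0.670). The AT-I call was close to the threshold and held in 2 of the 15 fits that left out a sample, those without AT-I day 2 replicate 3 or AT-II day 2 replicate 1. Of the 13 fits that ended it, 7 left out an AT-I sample.

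The laminin-binding chains Itga3, Itga6 and Itga7 changed by -0.21 to -0.05 on AT-I and by -0.40 to 0.20 on AT-II, and none of the 3 passed. Itga6, which pairs with Itgb1 or, in epithelia, with Itgb4, was at 9.29, 9.72, 9.21 and 9.43 in AT-II day 4, against 9.73, 9.90 and 9.82 in AT-II day 2. Those days narrowly did not overlap, and the change of -0.40 ± 0.14 had an adjusted p of 0.182. Itgb4 changed by -0.12 on both surfaces, with adjusted p of 0.554 on AT-I and 0.798 on AT-II.

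None of the 4 chains that recognise the RGD motif of fibronectin, vitronectin or fibrinogen passed on either surface. Itgav, the alpha chain shared by the vitronectin receptors, was at 10.09, 10.01, 10.02 and 10.6 in AT-I day 4, against 10.07, 9.58, 9.74 and 9.56 in AT-I day 2. It was at 10.22, 10.55, 10.24 and 10.28 in AT-II day 4, against 10.20, 9.89 and 10.11 in AT-II day 2. The AT-I days overlapped, while the AT-II days narrowly did not. Its change was 0.45 ± 0.16 on AT-I (adjusted p = 0.0739) and 0.25 ± 0.17 on AT-II (adjusted p = 0.602). On AT-I Itgav passed in 3 of the 27 other settings. Its partners Itgb5, Itgb6 and Itgb8 changed by 0.40, -0.03 and 0.38 on AT-I and by 0.19, 0.25 and 0.37 on AT-II, again with no call. Itga5, the alpha chain of the classical fibronectin receptor, changed by -0.20 ± 0.17 on AT-I and -0.16 ± 0.18 on AT-II, with 95% intervals of -0.56 to 0.16 and -0.54 to 0.23. Itga8, a chain that binds nephronectin, changed by 0.06 and -0.07, and Itga4, a fibronectin and VCAM receptor of leukocytes, by 0.31 and 0.05 on AT-I and AT-II in that order.

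Itga2b encodes the platelet and megakaryocyte chain that binds fibrinogen. It was at 9.17, 9.40, 9.04 and 8.54 in AT-I day 4, against 9.31, 10.23, 8.56 and 9.46 in AT-I day 2, and at 8.92, 9.54, 8.61 and 9.25 in AT-II day 4, against 10.02, 9.82 and 8.92 in AT-II day 2. The change was -0.35 ± 0.32 on AT-I (adjusted p = 0.481) and -0.51 ± 0.35 on AT-II (adjusted p = 0.614), and the range within AT-I day 2, 1.67, was the widest of any member in any group. The mean of the 6 measured platelet markers of 10 listed (Ppbp, Pf4, Gp1ba and Treml1 are the brightest) was 9.92, 10.14, 9.55 and 8.90 in AT-I day 4, against 9.78, 10.52, 9.12 and 9.97 in AT-I day 2. In these groups and in AT-II day 2 (10.48, 10.1 and 9.39) the samples stood in the same order for Itga2b and for the platelet mean, and in AT-II day 4 (9.76, 9.73, 9.22 and 9.95) they did not. How many of all genes stood in the platelet order was not counted, so this match has no share to be set against. None of the 6 platelet markers was called on either surface, and their part in the Itga2b values was not tested.

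The leukocyte chains made up 5 members, and none was called on either surface. Itgal, Itgam and Itgax are the alpha chains that pair with Itgb2, and Itgb7 pairs with alpha 4 in gut-homing lymphocytes. Itgam, found on neutrophils and macrophages, was at 9.49, 9.92, 9.67 and 9.49 in AT-I day 4, against 10.43, 10.04, 9.88 and 9.71 in AT-I day 2. It was at 9.48, 10.33, 9.57 and 9.66 in AT-II day 4, against 10.13, 10.27 and 10.05 in AT-II day 2, and the days overlapped on both surfaces. Its change was -0.37 ± 0.19 on AT-I (adjusted p = 0.208) and -0.39 ± 0.20 on AT-II (adjusted p = 0.450). Itgb7 was at 7.79, 8.24, 7.62 and 7.82 in AT-I day 4, against 8.52, 9.08, 7.82 and 8.31 in AT-I day 2, with a change of -0.57 ± 0.22 (adjusted p = 0.108). On AT-II its days did not overlap, at 7.84, 8.28, 7.77 and 8.25 on day 4, against 8.69, 8.72 and 8.43 on day 2 (-0.58 ± 0.24, adjusted p = 0.288). Itgb2 was at 10.58, 11.21, 10.81 and 10.63 in AT-I day 4, against 10.95, 11.15, 10.80 and 10.98 in AT-I day 2, and at 10.77, 11.31, 10.97 and 11.05 in AT-II day 4, against 10.80, 11.28 and 11.16 in AT-II day 2. Itgal was at 9.14, 9.59, 9.10 and 9.40 in AT-I day 4, against 9.26, 9.85, 9.22 and 9.39 in AT-I day 2, and at 9.40, 9.73, 9.65 and 9.62 in AT-II day 4, against 9.41, 9.82 and 9.72 in AT-II day 2. Itgax, known from dendritic cells, was at 7.34, 8.14, 7.56 and 7.62 in AT-I day 4, against 8.41, 7.88, 8.25 and 7.59 in AT-I day 2, and at 7.29, 8.39, 7.80 and 7.95 in AT-II day 4, against 8.65, 8.32 and 7.85 in AT-II day 2. The days overlapped on both surfaces for each of these 3 genes. Itgb2 changed by -0.16 ± 0.16 and -0.06 ± 0.17, Itgal by -0.12 ± 0.16 and -0.05 ± 0.17, and Itgax by -0.37 ± 0.25 and -0.41 ± 0.27, on AT-I and AT-II in that order. With each array centred on its median, Itgb7 passed on AT-I at -0.73 (adjusted p = 0.0387), 1 of 4 members lower in that setting, where 8.72% of all genes were lower, beside 6 members and 5.75% of all genes higher. That was 1 of 4 settings, of 27 others, in which Itgb7 passed on AT-I, and it passed in 1 on AT-II.

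**Figure D2:**
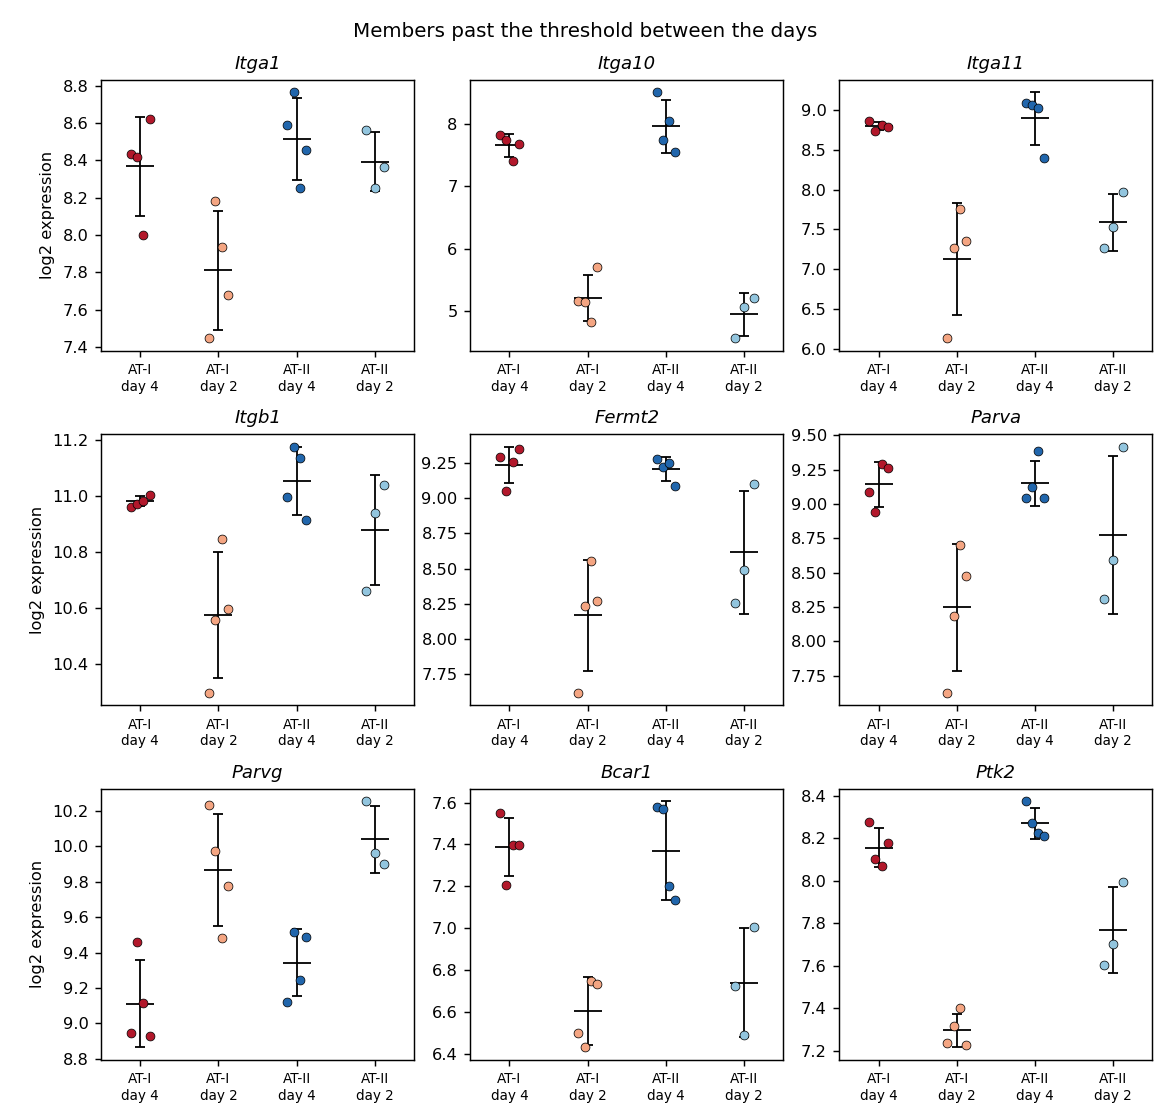
Log2 expression (vertical axis, its range differs between panels) of the 9 members called between the days on AT-I, with a point per sample, the group mean and SD, and the groups AT-I day 4, AT-I day 2, AT-II day 4 and AT-II day 2 from left to right. All panels except Parvg show a higher mean in AT-I day 4 than in AT-I day 2, though the Itga1 samples overlap. Ptk2 spans 8.07 to 8.28 in AT-I day 4, against 7.23 to 7.40 in AT-I day 2.

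Of the 19 adaptors, 4 rose and 1 fell on AT-I, where 8.84% of all genes rose and 2.66% fell. On AT-II 2 rose and 1 fell, where 3.13% of all genes rose and 0.203% fell. The kindlins, which bind the beta tail and help integrins switch on, are 3 related genes with different cell types. Fermt2, the kindlin of most adherent cells, was at 9.29, 9.05, 9.26 and 9.35 in AT-I day 4, against 7.62, 8.24, 8.55 and 8.27 in AT-I day 2, with no overlap. It was at 9.28, 9.22, 9.25 and 9.09 in AT-II day 4, against 8.26, 8.49 and 9.10 in AT-II day 2, where replicate 4 reached the day 4 values. The change was 1.07 ± 0.19 on AT-I (2.1-fold, adjusted p = 0.00194) and 0.59 ± 0.21 on AT-II (adjusted p = 0.176). Fermt3, the kindlin of blood cells, was at 9.91, 10.50, 9.93 and 9.60 in AT-I day 4, against 10.13, 10.64, 9.97 and 10.45 in AT-I day 2, with a change of -0.31 ± 0.19 (adjusted p = 0.288), and was at 10.04, 10.45, 9.98 and 10.30 in AT-II day 4, against 10.59, 10.56 and 10.31 in AT-II day 2, with a change of -0.30 ± 0.20 (adjusted p = 0.615). Fermt1, the kindlin of epithelia, was at 5.64, 4.83, 5.10 and 5.46 in AT-I day 4, against 5.02, 4.93, 5.28 and 4.83 in AT-I day 2, and at 5.49, 4.87, 5.04 and 5.05 in AT-II day 4, against 4.87, 4.58 and 4.45 in AT-II day 2. Its days overlapped on both surfaces, and it changed by 0.24 ± 0.18 on AT-I and 0.48 ± 0.20 on AT-II (adjusted p = 0.390 and 0.294).

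Parvins bind ILK and actin, and they too are 3 genes. Parva, the widely expressed alpha parvin, was at 9.08, 8.94, 9.29 and 9.26 in AT-I day 4, against 7.62, 8.19, 8.70 and 8.47 in AT-I day 2. It was at 9.04, 9.13, 9.39 and 9.05 in AT-II day 4, against 8.31, 8.59 and 9.42 in AT-II day 2, so the AT-II days overlapped. Parva rose by 0.90 ± 0.23 on AT-I (1.86-fold, adjusted p = 0.0210), and its change of 0.38 ± 0.25 on AT-II did not pass (adjusted p = 0.603). The AT-I rise was 0.69 (adjusted p = 0.0655) once AT-I day 2 replicate 1 was left out and 0.86 (adjusted p = 0.0649) once AT-I day 4 replicate 4 was, so it did not pass there, nor under a repeated quantile normalisation (0.75, adjusted p = 0.0627).

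Parvg, the gamma parvin of blood-forming cells, was at 8.94, 9.46, 9.12 and 8.93 in AT-I day 4, against 10.23, 9.98, 9.48 and 9.77 in AT-I day 2. It was at 9.12, 9.51, 9.25 and 9.49 in AT-II day 4, against 10.26, 9.96 and 9.90 in AT-II day 2. The days did not overlap on either surface, narrowly so on AT-I. Parvg fell by 0.76 ± 0.17 on AT-I (adjusted p = 0.00869) and by 0.70 ± 0.18 on AT-II (adjusted p = 0.0482). The AT-I call held in all 27 other settings, and the AT-II call ended in 12 of the 15 fits that left out a sample. Of those 12 fits, 7 left out an AT-II sample. Parvb, the beta parvin, was at 9.28, 9.72, 9.04 and 9.21 in AT-I day 4, against 9.56, 9.95, 9.46 and 9.69 in AT-I day 2, and at 9.47, 9.65, 9.41 and 9.64 in AT-II day 4, against 9.99, 9.86 and 9.60 in AT-II day 2. Its days overlapped on both surfaces. Parvb changed by -0.35 ± 0.15 on AT-I and -0.27 ± 0.17 on AT-II (adjusted p = 0.146 and 0.544), and the other members of the complex, Ilk and Lims1 (PINCH), changed by 0.17 and 0.14 on AT-I and by 0.01 and -0.16 on AT-II, with no call.

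**Figure D3:**
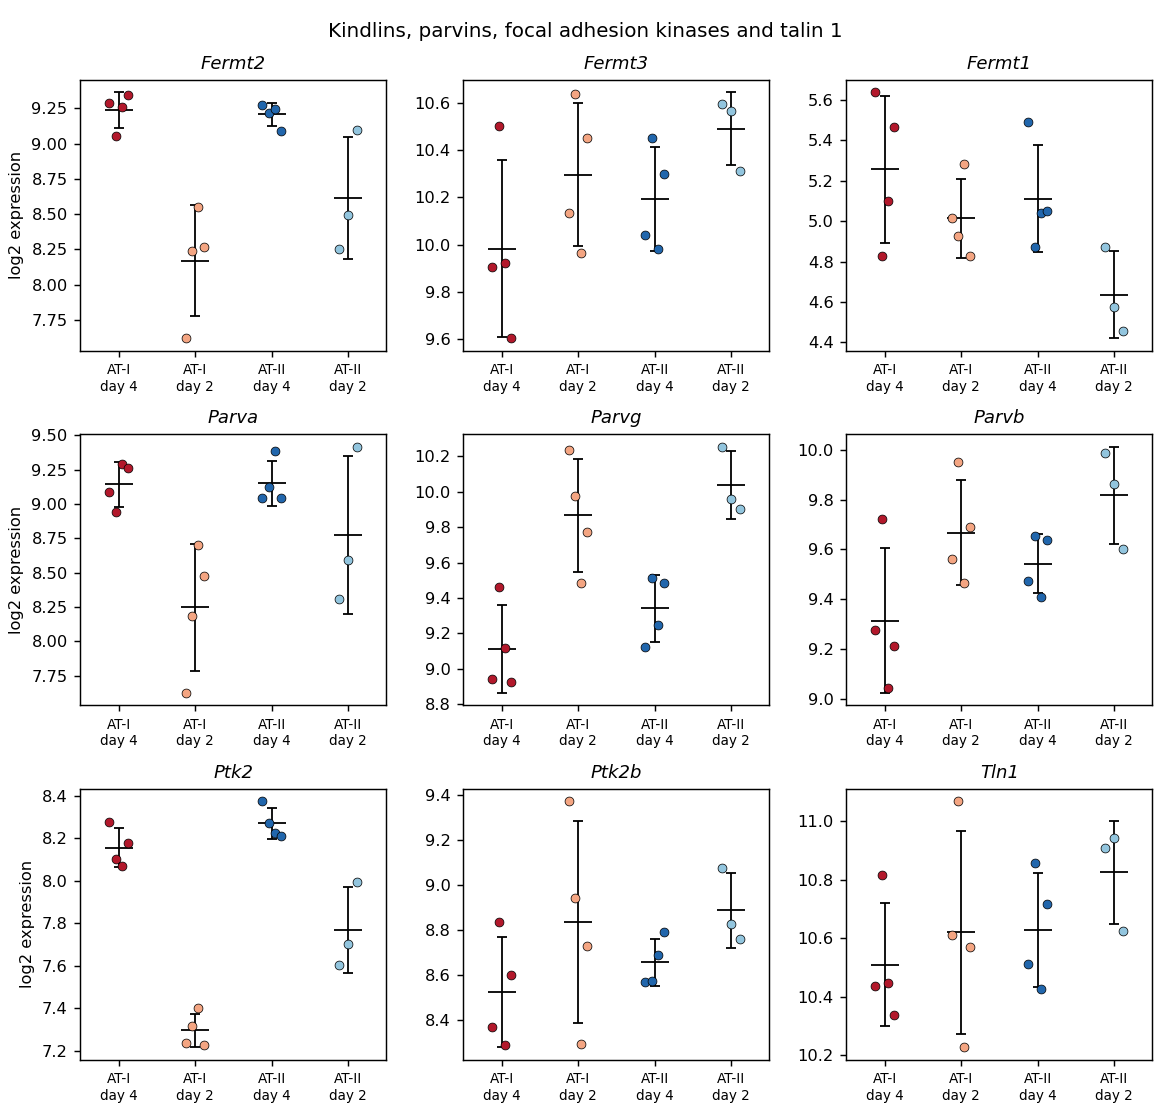
Log2 expression (vertical axis, its range differs between panels) of the 3 kindlins, the 3 parvins, the kinases Ptk2 and Ptk2b and talin 1, with a point per sample, the group mean and SD, and day 4 left of day 2 on each surface. The Fermt2, Parva and Ptk2 panels show AT-I day 4 above AT-I day 2, and the Parvg panel shows the reverse.

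Ptk2, the gene of focal adhesion kinase, was at 8.28, 8.10, 8.07 and 8.18 in AT-I day 4, against 7.24, 7.32, 7.40 and 7.23 in AT-I day 2. It was at 8.38, 8.27, 8.22 and 8.21 in AT-II day 4, against 7.60, 7.70 and 8.00 in AT-II day 2. Samples of a group lay close together and the days did not overlap on either surface. Ptk2 rose by 0.86 ± 0.11 on AT-I (1.82-fold, adjusted p = 0.000122) and by 0.50 ± 0.12 on AT-II (1.42-fold, adjusted p = 0.0239). The AT-I call held in all 27 other settings, and the AT-II call ended in 5 of the 15 fits that left out a sample. Ptk2b, the related kinase PYK2, which is abundant in blood cells and osteoclasts, was at 8.37, 8.83, 8.29 and 8.598 in AT-I day 4, against 9.37, 8.94, 8.30 and 8.73 in AT-I day 2, and at 8.57, 8.58, 8.69 and 8.79 in AT-II day 4, against 9.08, 8.83 and 8.76 in AT-II day 2. Its days overlapped on both surfaces, and it changed by -0.31 ± 0.19 on AT-I and -0.23 ± 0.20 on AT-II (adjusted p = 0.286 and 0.714).

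Bcar1, the Cas scaffold that focal adhesion kinase and Src phosphorylate, was at 7.55, 7.21, 7.40 and 7.40 in AT-I day 4, against 6.50, 6.43, 6.75 and 6.73 in AT-I day 2. It was at 7.58, 7.57, 7.20 and 7.13 in AT-II day 4, against 6.72, 6.49 and 7.01 in AT-II day 2, and the days did not overlap on either surface. Bcar1 rose by 0.78 ± 0.15 on AT-I (1.72-fold, adjusted p = 0.00249) and by 0.63 ± 0.16 on AT-II (1.55-fold, adjusted p = 0.0365). The AT-II call ended in 6 of the 15 fits that left out a sample. Paxillin (Pxn), the scaffold that docks both kinases and vinculin, changed by -0.28 ± 0.13 on AT-I and -0.25 ± 0.14 on AT-II, and the kinase Src by 0.22 ± 0.23 and -0.11 ± 0.25, none of them called.

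The talins and the actin links gave no call. Tln1, the main talin, changed by -0.11 ± 0.17 on AT-I and -0.20 ± 0.18 on AT-II, with 95% intervals of -0.47 to 0.25 and -0.58 to 0.19, and Tln2 by 0.19 and -0.03. Vinculin (Vcl), which is drawn to stretched talin, changed by -0.08 ± 0.20 on AT-I and -0.42 ± 0.22 on AT-II (adjusted p = 0.808 and 0.450). Zyxin (Zyx) changed by -0.28 and -0.19, Tns1 by -0.07 and -0.02 and Tns3, a tensin that ties the beta tail to actin, by 0.42 and 0.24, on AT-I and AT-II in that order.

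Further genes of the same structures were taken from a list chosen with earlier results of these data known. Of 50 measured of 56 other adhesion genes, 9 rose on AT-I and 4 on AT-II, and none fell on either surface. Among all genes, 8.84% rose on AT-I and 3.13% on AT-II, while 2.66% and 0.203% fell. Lpar1, a lysophosphatidic acid receptor, rose by 1.71 ± 0.21 on AT-I and 1.32 ± 0.23 on AT-II, the Src family kinase Yes1 by 1.64 ± 0.22 and 0.94 ± 0.24, and Enah, an actin regulator, by 1.56 ± 0.20 and 1.18 ± 0.22. Dock1, which acts downstream of Cas, rose by 0.95 ± 0.18 and Kank1, a protein of the adhesion rim, by 0.91 ± 0.17 on AT-I, and Ajuba, a LIM scaffold, rose by 0.63 ± 0.14 on AT-II. The median change of that list was 0.08 on AT-I and 0.03 on AT-II.

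Of 28 measured of 32 integrin ligands, 12 rose on AT-I and 5 on AT-II, and none fell. The shares of all genes that rose were 8.84% and 3.13%, and those that fell 2.66% and 0.203%. This list too was chosen with earlier results of these data known. The largest rises on AT-I were those of Dmp1 (3.46 ± 0.36), Ibsp (2.84 ± 0.72), Col1a2 (2.11 ± 0.39), Npnt (1.94 ± 0.19) and Col1a1 (1.75 ± 0.33). Dmp1 and Ibsp encode acidic RGD proteins of bone matrix, Npnt encodes nephronectin, and the collagen genes encode the chains of type I collagen, which the products of Itga1, Itga10 and Itga11 can bind. On AT-II the 5 called were Dmp1 (3.53 ± 0.39), Npnt (2.00 ± 0.21), Col1a2 (1.91 ± 0.42), Col1a1 (1.54 ± 0.35) and Col5a1 (1.47 ± 0.30). The median change over the ligands was 0.14 on AT-I and 0.21 on AT-II.

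Markers of several cell types moved between the same days as the members. For the counts that follow, 8.84% of all genes rose on AT-I and 3.13% on AT-II. Of 10 osteoblast and osteocyte markers, 8 rose on AT-I and 7 on AT-II, and their mean level was 8.93 to 9.54 in AT-I day 4, against 6.53 to 7.37 in AT-I day 2, and 8.95 to 9.64 in AT-II day 4, against 6.57 to 7.67 in AT-II day 2. Ibsp and Dmp1 are also on the list of integrin ligands, and of the other bright markers Alpl rose by 1.30 ± 0.26 and Bglap by 3.81 ± 0.60 on AT-I. Of 7 fibroblast and stromal markers, 5 rose on AT-I and 2 on AT-II, and their mean was 10.07 to 10.34 in AT-I day 4, against 8.00 to 9.20 in AT-I day 2, and 10.02 to 10.34 in AT-II day 4, against 8.65 to 9.50 in AT-II day 2. Dcn rose by 2.65 ± 0.35 on AT-I and 2.05 ± 0.38 on AT-II. Of the 9 members called between the days, 4 (Itga11, Itgb1, Fermt2 and Parva) had the samples of AT-I day 2 in the same order as the stromal mean (8.00, 8.90, 9.20 and 9.10), and Itga1, Itga10, Parvg, Bcar1 and Ptk2 did not. In AT-II day 2 (8.65, 9.16 and 9.50) 6 did, in AT-I day 4 only Fermt2 did, and in AT-II day 4 0 did. How many of all genes stood in these orders was not counted, so the member counts have no share to be set against. The part of these cells in the member changes was not tested, and in such bulk samples fewer cells of a type and less RNA per cell cannot be told apart.

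Of 9 chondrocyte markers, given here because Itga10 is best known from cartilage, 2 rose on AT-I (Acan and Col11a2) and 3 on AT-II (these and Sox9). Col2a1, the defining collagen of cartilage, changed by 0.06 ± 0.14 on AT-I and 0.26 ± 0.16 on AT-II (adjusted p = 0.819 and 0.552), and the mean of the list was 6.14 to 6.31 in AT-I day 4, against 5.81 to 6.01 in AT-I day 2, and 5.99 to 6.27 in AT-II day 4, against 5.66 to 5.95 in AT-II day 2. Of 6 osteoclast markers, Ctsk (1.99 ± 0.49) and Atp6v0d2 (2.18 ± 0.57) rose on AT-I and none was called on AT-II. The mean of the osteoclast list was 8.33 to 9.21 in AT-I day 4, against 6.76 to 8.07 in AT-I day 2, and 8.41 to 8.88 in AT-II day 4, against 7.10 to 8.07 in AT-II day 2. Of 7 smooth muscle and pericyte markers, Cspg4 and Rgs5 rose on AT-I and Cspg4 on AT-II, and the list mean overlapped between the days on both surfaces.

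Parvg and the beta 2 family are genes of leukocytes. Of 8 markers of all leukocytes, none was called on either surface, and their mean was 10.96 to 11.32 in AT-I day 4, against 11.08 to 11.44 in AT-I day 2, and 11.09 to 11.26 in AT-II day 4, against 11.26 to 11.45 in AT-II day 2. That mean overlapped between the days on AT-I, while on AT-II every day 4 sample was lower, narrowly so. Lcp1, the brightest of them, changed by -0.15 ± 0.12 on AT-I and -0.19 ± 0.13 on AT-II. Of 10 neutrophil markers 1 fell on AT-I (Csf3r, by 0.92 ± 0.21) and of 9 monocyte markers 1 fell (Cd14, by 0.67 ± 0.15), and none was called on AT-II. Among all genes, 2.66% fell on AT-I. The neutrophil mean was 9.85 to 10.53 in AT-I day 4, against 10.29 to 10.79 in AT-I day 2, and 9.98 to 10.27 in AT-II day 4, against 10.20 to 10.74 in AT-II day 2. The monocyte mean was 9.14 to 9.47 in AT-I day 4, against 9.04 to 9.68 in AT-I day 2, and 9.33 to 9.64 in AT-II day 4, against 9.27 to 9.79 in AT-II day 2. Both means overlapped between the days on both surfaces. The part of these cells in the fall of Parvg was not tested. No endothelial, T cell, B cell, erythroid, platelet or skeletal muscle marker was called on either surface (6, 8, 5, 6, 6 and 6 measured), and of 6 epithelial markers Krt19 fell on AT-I, by 0.48 ± 0.14. Csf3r, Cd14 and Krt19 are named because they were the sole calls of their lists, after their values were seen.

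**Figure D4:**
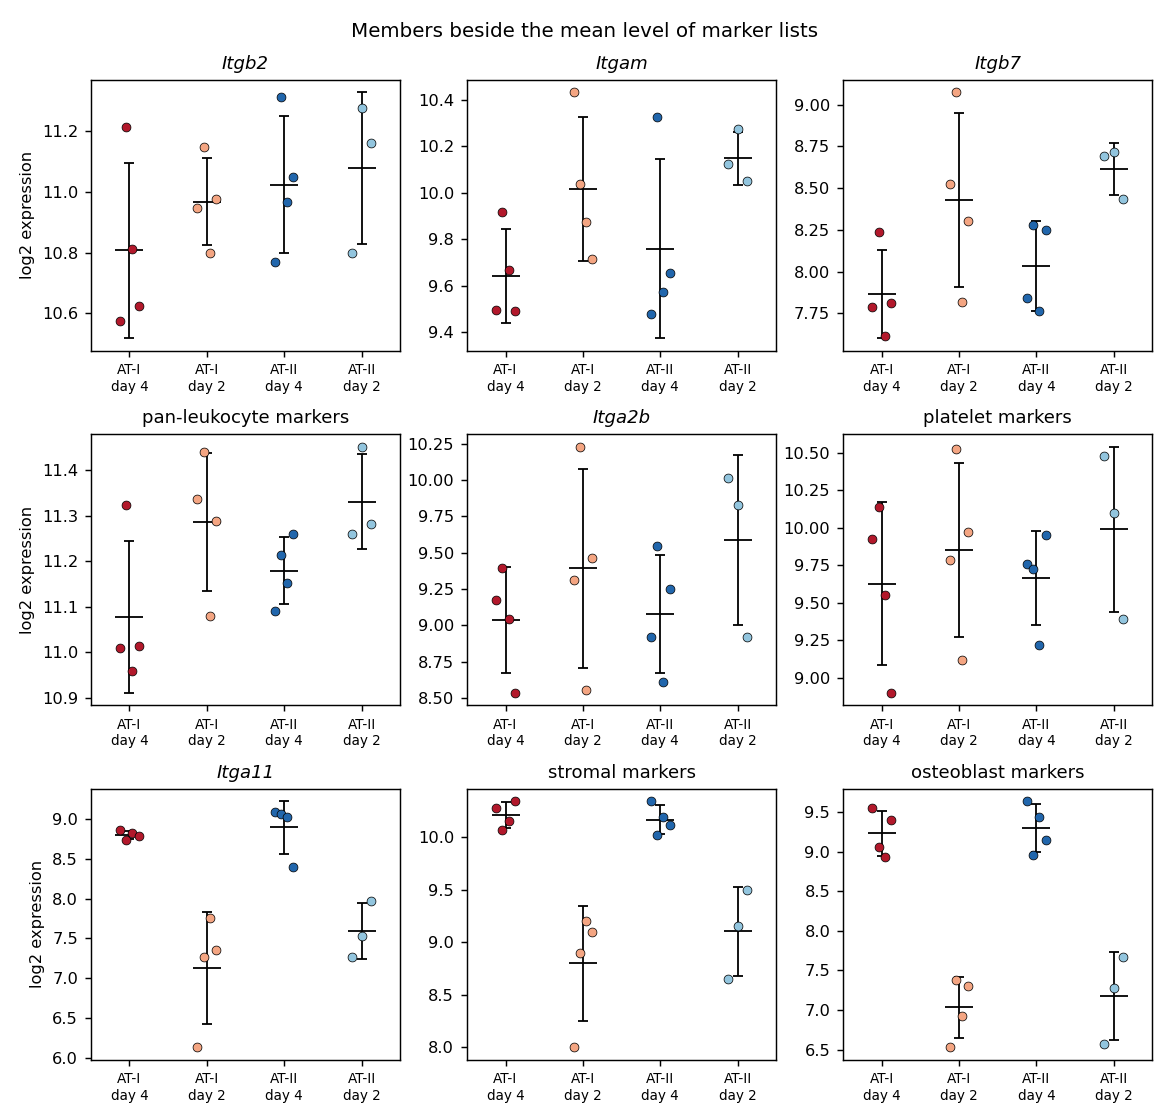
Log2 expression (vertical axis, its range differs between panels) of 5 members and the mean level of 4 marker lists, with a point per sample, the group mean and SD, and day 4 left of day 2 on each surface. Itga11 and the stromal and osteoblast means are higher in day 4 than in day 2 on both surfaces, while Itgb2, Itgam, Itga2b and the platelet mean overlap between the days on both surfaces and the pan-leukocyte mean does so on AT-I but, narrowly, not on AT-II.

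Setting AT-I against AT-II asks whether the nanoscale features altered adhesion genes. None of the 41 members passed on day 4 or day 2, for the mean of both days or for the difference of the time courses, with 0% of all genes called in each case. At an unadjusted p under 0.05 on day 2, 7 members were lower on AT-I and 1 was higher, where 14.8% of all genes were lower and 12.5% higher. On day 4, 1 member was higher and 0 were lower at that p, beside 2.54% and 1.44% of all genes. The median member difference on day 2 was -0.19, beside -0.09 for all genes, with 33 of 41 members and 9959 of 17245 genes below 0. On day 4 it was -0.11, beside -0.03, with 32 of 41 members and 10029 of 17245 genes below 0. Most members were brighter than the median gene. Over the 8623 genes that remained without the dim ones, the median difference was -0.25 on day 2 and -0.09 on day 4.

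Ptk2 had the smallest p on day 2. Its levels were 7.24, 7.32, 7.40 and 7.23 on AT-I, against 7.60, 7.70 and 8.00 on AT-II, without overlap, and the difference was -0.47 ± 0.12 (95% interval -0.72 to -0.23, adjusted p = 0.128). Itga1 was at 7.45, 8.18, 7.94 and 7.68 on AT-I, against 8.56, 8.25 and 8.36 on AT-II, and the difference was -0.58 ± 0.19 (-0.98 to -0.19, adjusted p = 0.128). Itga6 was at 9.30, 9.55, 9.52 and 9.14 on AT-I, against 9.73, 9.90 and 9.82 on AT-II, with a difference of -0.44 ± 0.14 (-0.74 to -0.14, adjusted p = 0.128). These were the 3 members with lower values in every AT-I sample, 7.32% of the members, beside 11.3% of all genes, and 2 members (Itga8 and Itgb6) were higher in every AT-I sample, beside 8.83% of all genes. Itga2, Itgb1, Fermt2 and Lims1 differed by -0.53, -0.31, -0.45 and -0.28 with an unadjusted p under 0.05, and Itgb6, an epithelial partner of alpha v, was the higher one at 0.43 ± 0.18 (adjusted p = 0.164). The levels of Itga8 and Itgb6 over all samples, 6.01 and 5.11, were below that of the median gene.

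With all 16 arrays counted separately, 4 members were lower on AT-I on day 2, with 6.68% of all genes called lower and 6.04% higher. The 4 members were Ptk2 (-0.46, adjusted p = 0.0400), Itga6 (-0.46, adjusted p = 0.0412), Itga2 (-0.57, adjusted p = 0.0464) and Itga1 (-0.55, adjusted p = 0.0465). For the mean of both days 2 members were lower in that setting, with 1.93% of all genes lower and 3.95% higher. With the pair averaged, 2 members passed on day 2 once AT-I day 2 replicate 2 was left out, Itga1 (-0.70) and Ptk2 (-0.48), both lower on AT-I, with 1.57% of all genes called lower and 2.56% higher. The interquartile range of the AT-I day 2 arrays, 2.48 to 2.98, lay below that of the AT-II day 2 samples, 3.05 to 3.41. With that range as a covariate, none of the members passed on day 2, but none had passed in the main fit either. Since the ranges of the 2 surfaces did not overlap on that day, this fit cannot tell range and surface apart.

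On day 4 the 95% interval of the surface difference included 0 for each of the members called between the days. Itga10 differed by -0.30 ± 0.22 (95% interval -0.77 to 0.16), Itga11 by -0.09 ± 0.27 (-0.67 to 0.48), Fermt2 by 0.03 ± 0.19 (-0.38 to 0.43), Parva by -0.01 ± 0.23 (-0.50 to 0.49), Bcar1 by 0.02 ± 0.15 (-0.29 to 0.33) and Ptk2 by -0.11 ± 0.11 (-0.34 to 0.12). Itga8, a receptor chain of smooth muscle and kidney mesenchyme, was at 6.60, 6.15, 6.16 and 5.98 on AT-I, against 5.58, 5.80, 5.90 and 5.78 on AT-II. It was the only member without overlap on that day, where 0.789% of all genes were higher and 1.41% lower on AT-I in that way, and its difference was 0.46 ± 0.17 (adjusted p = 0.913). Its level over all samples, 6.01, was below that of the median gene.

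The difference of the time courses tests whether a member changed more on AT-I than on AT-II. None of the 41 passed, and at an unadjusted p under 0.05 there were 2 members above 0, beside 2.55% of all genes, and 0 below, beside 1.55%. They were Itga2 (0.70 ± 0.26) and Ptk2 (0.36 ± 0.16), both with an adjusted p of 0.924. For the members called on AT-I alone, the difference was 0.43 ± 0.25 for Itga1, 0.23 ± 0.19 for Itgb1, 0.47 ± 0.28 for Fermt2 and 0.52 ± 0.34 for Parva, each with an adjusted p of 0.924. Their calls on AT-I and not on AT-II therefore do not show that the surfaces differ. For Itga10 the difference ran the other way, at -0.56 ± 0.32 (adjusted p = 0.924).

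For the mean of both days, 4 members were lower and 2 higher on AT-I at an unadjusted p under 0.05, where 14.4% of all genes were lower and 14.1% higher. Ptk2 (-0.29), Itga6 (-0.32), Itga1 (-0.36) and Itgal (-0.26) were the lower ones, Itga8 (0.39) and Itgb6 (0.29) the higher ones, with adjusted p of 0.102 to 0.167. The higher ones were dimmer than the median gene and the lower ones brighter.

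**Figure D5:**
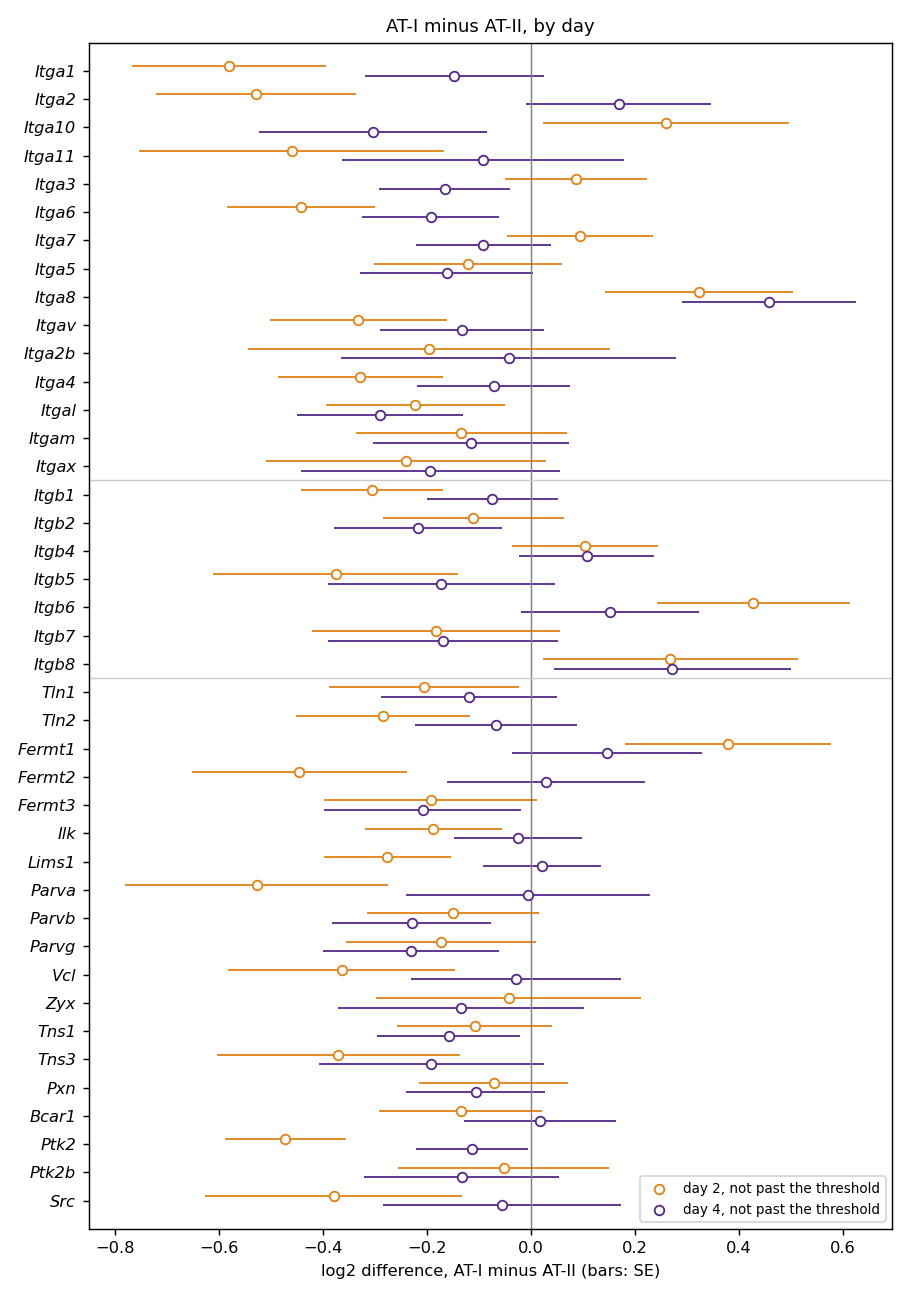
Log2 difference between the surfaces (horizontal axis, AT-I minus AT-II, bars SE) for the 41 measured members on day 2 (orange) and day 4 (purple). No point is filled because none passed, and most lie left of 0, with Itga1, Itga2 and Parva farthest to the left on day 2.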

How the data were processed

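RNA from implant-adherent cells was hybridised to 16 arrays in 4 groups of 4, per the labels. The deposited log2 values (1.82 to 14.0) came from RMA, run by the authors in Expression Console according to the submitters' processing notes. The log base is inferred from RMA. Software versions and a genome build were not given in the sources used here. The arrays differ in interquartile range and median as deposited, so centring, a repeated quantile normalisation and that range as a covariate were among the other settings.

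Of 29214 rows, 18644 named 1 gene in the platform annotation. The 962 rows with several names and the 9608 with none were not used, and the brightest row stood for each of 879 genes with more than 1. Group means were fitted and tested two-sided with lmFit and eBayes (limma 3.58.1, R 4.3.3) for 17245 genes in 15 samples, with Benjamini-Hochberg adjustment over all of them, and the script was tested on simulated data. A set of 30 other settings was run, among them 15 that each left out 1 sample. Replicate numbers were checked for pairing, since each rat carried both surfaces.

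The members, the 17 gene lists, the averaging of the array pair and the tests were chosen with earlier results of these data known, and so was the rule for named genes. By that rule all members are named, with full values for those past the threshold and for the collagen-binding, kindlin, parvin, focal adhesion kinase and leukocyte genes. It also names up to 5 called genes per direction of the adhesion and ligand lists and up to 4 of the brightest of each marker list. Sample values of Itgav, Itga6, Itga2b and Itga8, and the markers Csf3r, Cd14 and Col2a1, are given beyond that rule, chosen after their values were seen. Promoter motifs were searched with Python 3.11.15. Coordinates are those of RefSeq for GRCr8 and were not used to place array rows.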

Additional observations from a re-analysis of the deposited data

Results flagged for a closer look

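In groups of 4 samples, 1 sample of a member was set against the other 3, and a gap to the nearest of them above Dixon's 95% value as a share of the whole range was taken as standing apart. Of 123 groups of 4 samples over the 41 members, 8 met this, where chance gives about 1 in 20. AT-II day 2, with n = 3, was not tested.

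Among the members called between the days, Itga11 stood apart in AT-II day 4, where replicate 4 was at 8.40 and the others lay from 9.03 to 9.09. Without that sample the rise of Itga11 on AT-II was larger, at 1.47.

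AT-I day 2 replicate 1 was high for Itga8, at 6.68 with the others at 5.96 to 6.0, and low for Tns3, at 8.49 with the others at 9.22 to 9.37. Itga7 in AT-I day 2 was at 6.04 in replicate 4, with the others at 5.85 to 5.87.

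In AT-I day 4, Itga5 was at 8.62 in replicate 1, with the others at 8.87 to 8.90. Itgav was at 10.635 in replicate 4, with the others at 10.01 to 10.09. Itgb6, a chain of epithelia, was at 5.84 in replicate 3, with the others at 4.96 to 5.06. Lims1 in AT-II day 4 was at 11.77 in replicate 4, with the others at 11.56 to 11.59.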

How the results depend on the processing

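Over 30 other settings, 7 of the 14 member calls between the days stayed past the threshold in every setting tested (Itga10 on both surfaces and Itga11, Fermt2, Parvg, Bcar1 and Ptk2 on AT-I), and 0 reversed. Dim genes left out removed Itga10, so it had 26 settings and not 27. Of the members not called between the days, 5 on AT-I and 4 on AT-II passed in at least 1 other setting. How many of all genes did so was not counted. Leaving out 1 sample at a time gave 6 to 9 members past the threshold on AT-I (9 in the main setting) and 1 to 5 on AT-II (5). Over all genes these fits gave 991 to 1884 higher and 167 to 1070 lower on AT-I. On AT-II they gave 219 to 628 higher and 4 to 66 lower. AT-II gave 1 when any of AT-II day 2 replicate 1, the averaged sample and AT-II day 4 replicates 1, 2 and 3 was left out, and 3 without AT-I day 4 replicate 4. It gave 3 with only the compared groups fitted, 3 with each array centred on its median, 2 after quantile normalisation repeated, 9 with array weights, and 2 with both day 2 samples numbered 1 left out, a setting chosen after seeing the data. Over all genes, AT-II had 502 higher and 53 lower with only the compared groups and 366 and 141 with centring. It had 426 and 54 after quantile normalisation and 919 and 309 with array weights. Without both day 2 samples numbered 1 it had 325 and 9, beside 540 and 35 in the main setting. Between the surfaces on day 2 (0 members), 4 passed with all 16 arrays counted separately, 4 with array weights and 0 to 2 when 1 sample was left out, with 2 without AT-I day 2 replicate 2. For the mean of both days (0 members) these were 2, 4 and 0 to 3, with 3 without AT-I day 2 replicate 2. On day 4 and for the difference of the time courses every setting gave 0 members.

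Deviations of same-numbered samples correlated on day 2 at 0.65 (number 1), 0.62 (2, the averaged sample) and 0.20 (4), or at -0.31 where the averaged sample is taken as number 3, and on day 4 at 0.13, -0.34, 0.47 and 0.20. The day 2 pairs were thus all positive with the averaged sample as number 2, but not every pair was over both days, so the numbers were not taken to pair the samples, and not every sample correlated best with its own number. With a replicate block, the averaged sample numbered 2 gave 0 members on day 2 and 0 for the mean of both days, with 0 of all genes in either. Numbered 3 it gave 1 member on day 2, with 819 of all genes higher and 435 lower, and 3 for the mean of both days, with 1353 and 686. The 16 arrays gave 8 members on day 2, with 1855 genes higher and 1968 lower, and 4 for the mean, with 1765 and 1344.

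Over all genes, day 2 between the surfaces had 1041 higher and 1152 lower on AT-I with 16 arrays, 1713 and 2000 with array weights and 441 and 270 without AT-I day 2 replicate 2, against 0 and 0 in the main setting. For the mean of both days these were 681 and 332, 2005 and 1683, and 972 and 460. Centring each array moved the median change of all genes to -0.21 on AT-I and -0.16 on AT-II, beside -0.05 and -0.05. On AT-I it gave 991 genes higher and 1504 lower, beside 1525 and 458, and 6 members higher and 4 lower, with Itgb7 (-0.73), Parvb (-0.51) and Pxn (-0.44) joining Parvg. On AT-II it gave 366 and 141, beside 540 and 35. With array weights AT-II had 919 and 309, and without AT-II day 2 replicate 1 it had 219 genes higher and 4 lower. The cause of these shifts was not tested.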
